A study of Homo sapiens with 4 samples.

Results

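The CpGs described here are those at which the genome assembly receives many more reads than the rest of the genome. They were chosen by coverage alone: a CpG on chromosomes 1 to 22 had to be listed in all 4 libraries with at least 300 reads in each of them. The rule found 4318 of the 22761441 autosomal CpGs shared by the libraries, or 0.0190%, and members less than 10 kb apart were joined into 251 clusters. They lay on 20 of the 22 autosomes, with none on chromosomes 13 and 14. The label given to them, collapsed repeats, means sequence families with more copies in the cell than in the reference, so that reads of many copies pile up on few positions. Sequence typing put 4016 of the members in satellite repeats, as set out below. The number of copies of each sequence in these cells was not measured.

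The cells were HUDEP-2, an immortalised line of human erythroid precursors whose haemoglobin is normally of the adult kind, and their DNA methylation was read by bisulfite sequencing of the whole genome. Bisulfite turns unmethylated cytosine into a base read as T, so the level of a CpG is the percent of its reads that still show C. There was 1 library for each of 4 groups. NonDiff came from untreated, non-differentiated cells. DMSO, DNMT1i and EEDi came from cells differentiated through a growth stage of 4 days and a maturation stage of 2 days, with the vehicle alone, with an inhibitor of DNMT1 or with one of EED. All 3 of these groups had 0.1% DMSO in the medium, and additions began at the expansion stage. The labels describe the inhibitor-treated cells as making more fetal haemoglobin and give no compound names or doses. Libraries held 672115916 to 741744952 reads summed over CpGs, with a median of 26 to 29 reads per shared autosomal CpG. Without replicates, spread between cultures is not known, and levels are printed as single values without intervals. Neighbouring CpGs on the same read are not independent.

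Human centromeres are built on alpha satellite, a short repeat unit arranged in long arrays, and many units carry a short motif, the CENP-B box, which the protein CENP-B binds. Satellites II and III are degenerate arrays of the pentamer CATTC, read as GAATG on the other strand, and form blocks of heterochromatin beside several centromeres, among them those of chromosomes 1, 9 and 16. Satellite DNA is normally methylated. DNMT1 is the enzyme that copies CpG methylation onto the new strand after replication, and EED belongs to the Polycomb complex that puts methyl groups on histone H3.

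The following stretches of hg38, plus strand and 5′ to 3′, show what the reads of each main kind of cluster align to. Each is centred on the member with the highest DMSO coverage among the named clusters of its type, and CpGs are in capitals.
Satellite II/III, chr1:125180102-125180301: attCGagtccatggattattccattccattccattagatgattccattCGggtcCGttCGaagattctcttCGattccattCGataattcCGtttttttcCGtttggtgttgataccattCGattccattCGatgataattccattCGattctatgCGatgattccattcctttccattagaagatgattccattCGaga
Alpha satellite, chr17:26603784-26603983: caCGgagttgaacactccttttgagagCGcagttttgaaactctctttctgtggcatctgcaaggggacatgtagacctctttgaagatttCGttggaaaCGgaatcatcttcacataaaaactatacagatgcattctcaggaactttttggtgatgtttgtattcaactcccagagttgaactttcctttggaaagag
Nuclear copy of mitochondrial DNA, chr1:633928-634127: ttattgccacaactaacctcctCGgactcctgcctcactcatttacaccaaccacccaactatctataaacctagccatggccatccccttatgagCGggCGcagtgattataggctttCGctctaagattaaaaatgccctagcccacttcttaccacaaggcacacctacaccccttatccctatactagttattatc
Other repeat, chr1:236097155-236097354: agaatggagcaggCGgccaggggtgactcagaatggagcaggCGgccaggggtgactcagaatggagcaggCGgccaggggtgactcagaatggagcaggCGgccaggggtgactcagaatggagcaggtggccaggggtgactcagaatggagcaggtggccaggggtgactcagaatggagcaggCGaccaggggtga

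The first stretch holds 13 CpGs in 200 bases, all of them members, and 9 copies of the pentamer CATTC or GAATG. The alpha satellite stretch holds 4 and is interrupted by long runs without a CpG. The last is a tandem array with a period of 29 bases in which some units have a CpG and others a TG at the same place. At the central CpG of the satellite II/III stretch the coverage was 31305 reads in NonDiff, 31177 in DMSO, 36321 in DNMT1i and 33589 in EEDi, and the levels were 73.6%, 71.4%, 20.9% and 69.1%. The central alpha satellite CpG had 19715, 19750, 20742 and 19896 reads and levels of 39.7%, 39.5%, 8.5% and 35.5% in the same order. At both CpGs DNMT1i stood far below the other 3 libraries, and EEDi stood a few points below DMSO.

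Satellite repeats made up nearly all members. By the rules on sequence described under the processing, 8 clusters with 3296 members were satellite II/III, 213 clusters with 720 members were alpha satellite, 1 cluster with 19 members was a copy of mitochondrial DNA, 3 clusters with 4 members were other tandem repeats and 26 clusters with 279 members were of no such type. Self-match was measured over a cluster with its flanks, so a short array, such as the last stretch shown above, can fall in the class of no type. Of the reads summed over members in DMSO, where a read counts at each CpG it covers, the 8 satellite II/III clusters carried 88.4%. The alpha satellite clusters carried 8.80%. Members were concentrated in few places: the 6 largest clusters held 3303 of them, 76.5%, while 69 clusters had a single member and only 60 had 5 or more. A pentamer density of 10 times that of the whole genome, the threshold for satellite II/III, was reached by 0.0802% of all 1 kb regions of the reference. A CENP-B box on either strand within 1 kb was present at 206 of the 213 alpha satellite clusters and in 1.91% of all 2 kb regions. Since a box was 1 of the criteria for the alpha satellite type, that count describes the rule as well as the data.

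Most clusters were pericentromeric. Of the 251 clusters, 210 lay inside the main alpha satellite block of their chromosome and 232, or 92.4%, lay within 5 Mb of it. Over members the share was 51.2% within 5 Mb and 15.9% inside a block, compared with 6.79% and 0.715% of all shared autosomal CpGs. The gap between clusters and members came from 2 large satellite II/III clusters, on chromosomes 1 and 16, that lie across unsequenced gaps of the assembly from their block. With gaps not counted in the distance, a setting chosen after seeing the data, 96.2% of members and 93.2% of clusters were within 5 Mb. The share of all shared autosomal CpGs was not computed for that distance. By gene annotation, 238 clusters lay over no gene. The 13 clusters that did overlap a gene included the mitochondrial copy, over the pseudogenes MTND2P28 and MTATP6P1, and a cluster in an intron of CACNA1C, which encodes a calcium channel subunit.

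Many of these sequences have only 1 exact copy in the reference. Taking 50 bases on each side, 4312 members had surroundings without an assembly gap. Of these, 2307, or 53.5%, had surroundings found at exactly 1 place of hg38, 1409 had 2 to 10 exact copies and 596 had more. With every C read as T, as after bisulfite, 45.4% were still at 1 place. The share with 1 exact copy was 55.1% for satellite II/III and 44.2% for alpha satellite. The most copied surroundings, in alpha satellite, occurred 2021 times. The series' design text says that most read pairs mapped uniquely and does not say whether the others were kept, and the part of read placement in the coverage was not tested.

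Coverage chose the members, so it is given as a description. The median coverage of members was 811 reads in NonDiff, 772 in DMSO, 939 in DNMT1i and 838.5 in EEDi, which was 28.6 to 33.5 times the median of all shared autosomal CpGs in the same library. Members took 1.36%, 1.28%, 1.46% and 1.30% of the reads summed over shared autosomal CpGs. In such sums a read counts at each CpG it covers, so CpG-dense repeats weigh more. The libraries had 4447 to 4807 autosomal CpGs at 300 reads or more, and 5029 reached it in at least 1 library. Just inside the threshold, 203 members with a lowest coverage of 300 to 319 reads had levels of 59.9%, 58.8%, 20.7% and 56.6%. Just outside, 233 CpGs at 280 to 299 reads had 61.2%, 59.4%, 21.9% and 57.2%.

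**Figure D1:**
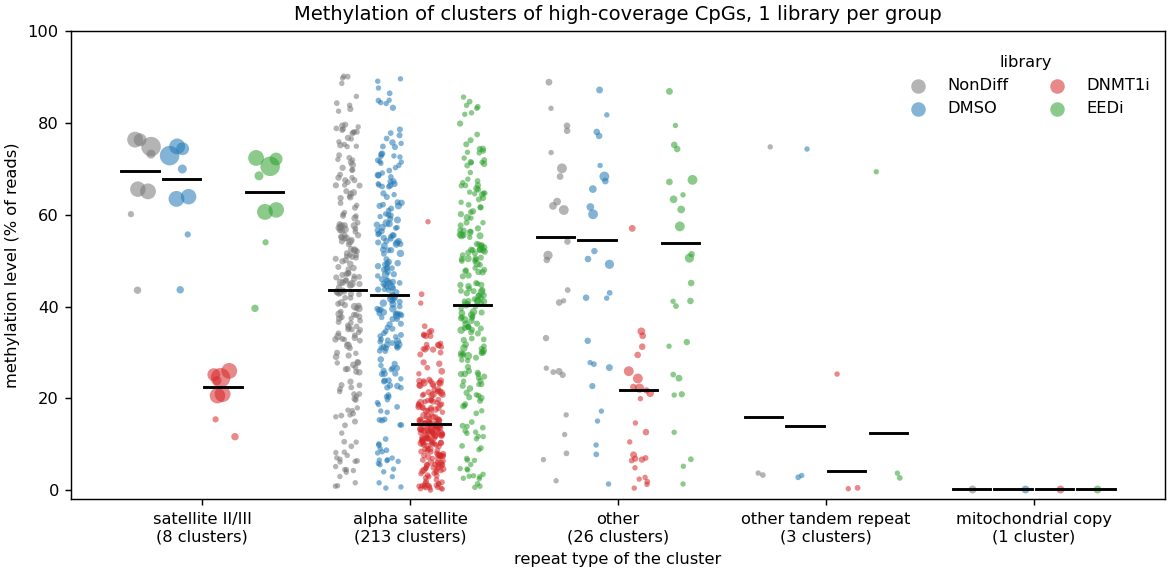
Methylation level (percent of reads, vertical axis) of each of the 251 clusters, by repeat type (horizontal axis) and library (colour). Each point is a cluster with its area growing with the number of members, and black bars are the level over all members of a type. The 8 satellite II/III points run from 43.7% to 74.9% in DMSO, with the bar at 67.7%, and alpha satellite clusters spread over nearly the whole range.

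Methylation was not used by the rule and was therefore compared between libraries. Over all members the level was 66.4% in NonDiff, 65.0% in DMSO, 21.9% in DNMT1i and 62.5% in EEDi. All shared autosomal CpGs had 61.8%, 60.3%, 16.8% and 59.3%. Members were thus a few points above the genome in each library. Their distribution differed in shape: in DMSO 61.3% of members had a level between 20% and 80%, against 31.7% of all shared autosomal CpGs, 7.57% were at 20% or under against 21.6%, and 31.1% were at 80% or over against 46.7%. Where reads of several copies fall on a CpG, copies that differ among themselves cannot be told apart here from cells that differ. Depth also differs, since at a median near 27 reads the level of an ordinary CpG is coarse, and the part of depth in these shares was not tested.

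Satellite II/III had the highest methylation of the repeat types. Over its 3296 members the level was 69.5% in NonDiff, 67.7% in DMSO, 22.6% in DNMT1i and 65.0% in EEDi. Single members ranged widely around a DMSO median of 75.4%, with quartiles of 60.7% and 83.5%. The largest cluster, chr1:143184664-143268703, had 1377 members and levels of 74.9%, 72.9%, 24.5% and 70.6% in NonDiff, DMSO, DNMT1i and EEDi. Closer to the same centromere, chr1:125168129-125184495 had 225 members and 76.3%, 74.4%, 25.2% and 72.2%. The chromosome 10 cluster chr10:42066465-42086652, with 559 members, was nearly the same at 76.4%, 74.9%, 26.0% and 72.4%. A smaller one nearby, chr10:41845649-41856750 with 39 members, had 73.2%, 70.0%, 23.9% and 68.5%.

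The chromosome 16 clusters were lower than these in all 4 libraries. At chr16:46380693-46401624, with 567 members and a mean DMSO coverage of 5172 reads, the levels were 65.1%, 63.5%, 20.9% and 60.6%. At chr16:34571556-34595858, with 512 members and 2949 reads, they were 65.6%, 63.95%, 20.6% and 61.1%. The clusters also differed in sequence period. The strongest self-match was at 26 bases for the 4 clusters of chromosomes 1 and 10 and at 49 bases for those of chromosome 16. The remaining clusters of the type, chr4:49120135-49121035 and chr20:31060364-31068575, repeated at 5 bases, were shallower and had DMSO levels of 55.7% and 43.7%. In DMSO the clusters with a period of 26 were at 70.0% to 74.9%, those with a period of 49 at 63.47% and 63.95%, and the pure pentamer arrays below. The pentamer arrays have few members, and the 13 on chromosome 20 ran from 3.63% to 85.0% in DMSO. Each chromosome had clusters of only 1 period, so period and chromosome cannot be told apart. All 8 clusters were lower in DNMT1i, with differences of -32.0 to -49.2 points, and all 8 were lower in EEDi, with differences of -1.48 to -4.05 points.

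Alpha satellite had intermediate methylation that varied widely, both between clusters and within them. Over its 720 members the level was 43.6%, 42.5%, 14.5% and 40.3% in NonDiff, DMSO, DNMT1i and EEDi, and over the 213 clusters the DMSO level ran from 0.461% to 89.6% with a median of 44.3%. Within chr17:26594863-26604420 alone, single members ran from 0.0926% to 73.9% in DMSO. Many clusters hold few CpGs, so spread between clusters was not separated from spread between CpGs. The members were close to their surroundings: the 162089 shared CpGs inside the blocks that were not members had 47.7%, 47.0%, 16.1% and 44.5%. Among clusters of 5 or more members the deepest, chr17:26594863-26604420 with 15 members and a mean of 6230 reads in DMSO, had 38.4%, 38.03%, 10.3% and 34.9%. Its neighbour chr17:26619303-26620083, with 14 members, had 39.6%, 39.5%, 13.3% and 36.2%, and chr17:26881045-26885836, with 21 members, had 31.5%, 31.7%, 12.3% and 29.2%.

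Among clusters of 5 or more members, the lowest alpha satellite levels were at chr9:44081373-44082977, with 27.3%, 22.7%, 4.4% and 22.1% and the smallest share kept in DNMT1i, 19.5%, and at chr17:25115440-25115560, with 25.7%, 25.4%, 6.0% and 20.1%. The cluster chr10:41405859-41406928 kept little methylation in DNMT1i, with 48.4%, 45.6%, 9.6% and 42.5%. By contrast chr10:41124906-41133936 had 57.2%, 58.9%, 23.3% and 56.2%. In DNMT1i all 213 alpha satellite clusters were lower than in DMSO. In EEDi 181 were lower, and in DMSO 147 were lower than in NonDiff.

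The CENP-B box gave a position of known function to compare within alpha satellite. It is 17 bases long and holds 2 CpGs that are 9 bases apart. One of the boxes with the deepest coverage, read on the plus strand and with its CpGs in capitals, shows them.
CENP-B box, chr17:23190288-23190304: tttCGttggaaaCGgga
At this box the first CpG had 5659 reads in DMSO and levels of 69.9%, 68.3%, 27.9% and 65.8% in NonDiff, DMSO, DNMT1i and EEDi, and the second had 6329 reads and levels of 72.6%, 69.7%, 19.3% and 68.3%. At this box the second CpG was higher by a few points in 3 libraries, and in DNMT1i the first was higher.

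The other boxes among the members were compared in the same way. In 78 boxes both CpGs were members. The first CpG was higher than the second in 54 of them in NonDiff, 58 in DMSO, 57 in EEDi and 76 in DNMT1i, and the median difference was 4.88, 4.29, 4.62 and 9.79 points. These are 69.2%, 74.4%, 73.1% and 97.4% of the boxes. Over all 15781 boxes of the blocks with both CpGs shared, nearly all of them much shallower, the first CpG was higher in 71.4%, 70.7%, 72.1% and 81.5%. By that share the members were near the background in 3 libraries and above it in DNMT1i. The median differences over all these boxes were 6.52, 6.43, 6.46 and 9.09 points in the same order. By the median the members were thus below the background in 3 libraries and close to it in DNMT1i. The part of depth in both measures was not tested. Over all members inside the blocks, 83 first CpGs had 55.4% in DMSO and 22.3% in DNMT1i, so 40.2% of the level was kept. For 82 second CpGs these were 50.5% and 13.1%, or 26.0% kept, and for 520 members outside a box 40.8% and 13.9%, or 34.0% kept. The 16816 first and 16448 second CpGs of the blocks that were not members, which the coverage rule did not pick, gave 40.5% and 23.6% kept. The boxes share their sequence and many are near-identical copies, so they are not independent, and no test was made.

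**Figure D2:**
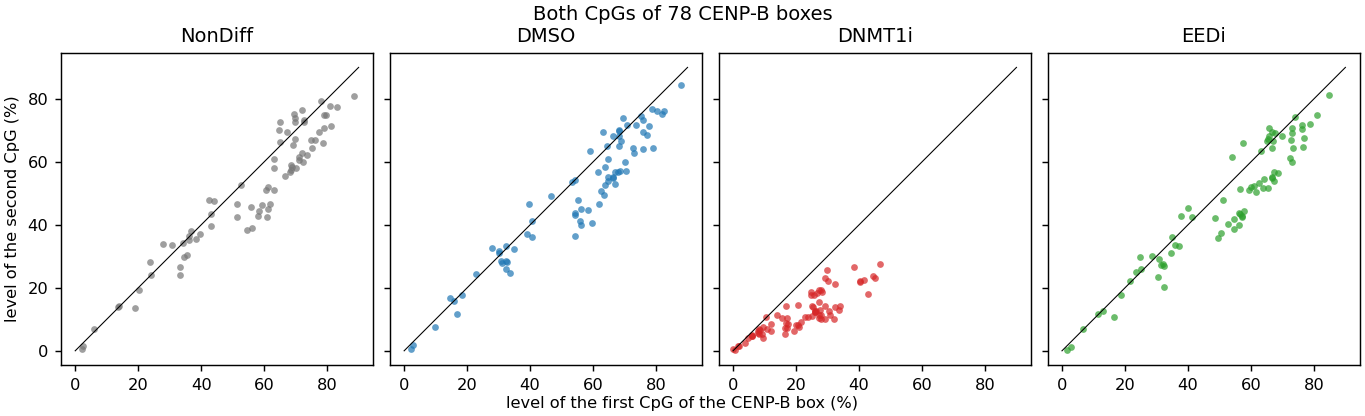
Level of the second CpG (vertical axis, percent) against the level of the first CpG (horizontal axis, percent) in each of the 78 CENP-B boxes with both CpGs among the members, 1 panel per library. Each point is a box and the line marks equal levels. In DNMT1i, 76 of the 78 points lie below the line, 97.4% against 81.5% of all 15781 boxes of the blocks. The median differences there were 9.79 and 9.09 points, and the part of depth was not tested.

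Some alpha satellite members have identical copies on several chromosomes of the reference. On chromosomes 1, 5 and 19, 18 members each had surroundings, taken as before, that were identical on the 3 chromosomes. They lay at the same offsets over a span of 2103616 bases, 54 members in all. This identity is a property of the reference. Whether these cells carry the same sequence on the 3 chromosomes was not tested. In DMSO the deepest copy of a sequence had a median of 1.07 times the reads of the shallowest and at most 1.13 times. The levels of the 3 copies differed by a median of 2.37 points and by at most 6.54 points, while the 18 sequences themselves ranged from 0.271% to 72.8% in their chromosome 1 copies. Summed over the 18, the levels on chromosome 1 were 37.6%, 37.1%, 11.3% and 35.0% in NonDiff, DMSO, DNMT1i and EEDi, on chromosome 5 37.2%, 36.1%, 10.9% and 35.6%, and on chromosome 19 38.2%, 36.8%, 11.6% and 34.9%. Reads of identical sequence cannot be assigned to 1 of the chromosomes, so these values cannot be given to any 1 of them.

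The nuclear copy of mitochondrial DNA was the only cluster of its type and stood apart in both level and coverage. It spans chr1:629790-634178 over the pseudogenes MTND2P28 and MTATP6P1, with 19 members. Its level was 0.209% in NonDiff, 0.294% in DMSO, 0.161% in DNMT1i and 0.328% in EEDi, and the highest level of any of its CpGs in DMSO was 1.53%. At CpGs above 1000 reads the deposited percent, with 1 decimal, fixes a level only to 0.05 points, so differences among these small values are not read. Of the 19 members, 9 had surroundings of 50 bases on each side also found in the mitochondrial chromosome of the reference. Reads of mitochondrial and of nuclear origin were not told apart.

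Its coverage was lower in each of the differentiated libraries than in NonDiff. The mean per CpG was 3027 reads in NonDiff, 1327 in DMSO, 1109 in DNMT1i and 1186 in EEDi. Scaled by each library's median coverage, DMSO had 0.42 times the NonDiff coverage, with the 19 CpGs between 0.389 and 0.463. DNMT1i had 0.81 times and EEDi 0.83 times the DMSO coverage, with ranges over CpGs of 0.764 to 0.875 and 0.745 to 0.931. After scaling, all 19 CpGs were lower in DMSO than in NonDiff, and all 19 were lower again in both inhibitor libraries. Of 27165 windows of 100 kb across the autosomes, 98% had a ratio of DMSO to NonDiff between 0.899 and 1.13. For DNMT1i to DMSO that range was 0.938 to 1.07 and the cluster lay under it, and for EEDi to DMSO it was 0.790 to 1.18 and the cluster lay within it.

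**Figure D3:**
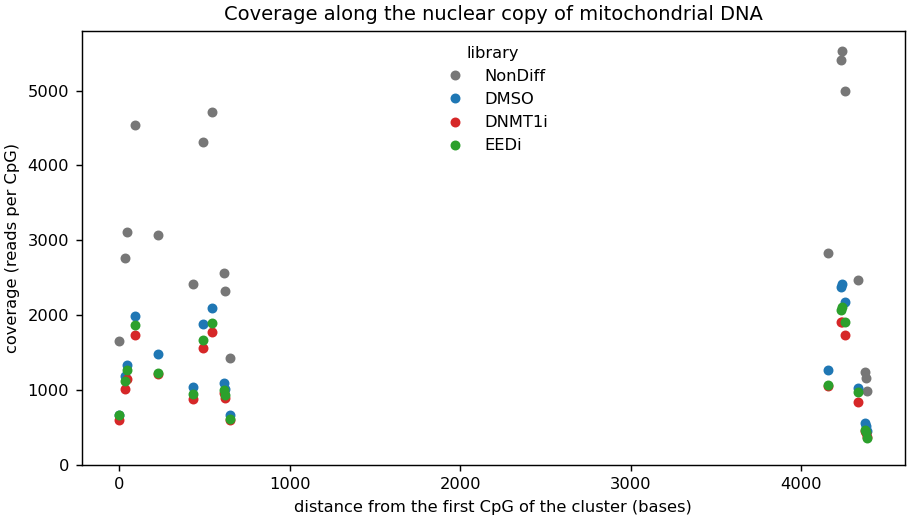
Coverage (reads per CpG, vertical axis) of the 19 CpGs of the mitochondrial copy by distance from the first of them (bases, horizontal axis), 1 colour per library, not scaled for depth. NonDiff reaches 5535 reads and lies above the other libraries at all 19 CpGs, while DMSO reaches 2417, DNMT1i 1914 and EEDi 2103.

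The 26 clusters of no assigned type included several multicopy loci. Beside the RNA45SN2 gene for ribosomal precursor RNA on chromosome 21, chr21:8219700-8234705 held 45 members with levels of 51.2%, 49.2%, 22.2% and 50.6% in NonDiff, DMSO, DNMT1i and EEDi. Together with 3 members near other 45S genes of that chromosome, these 48 kept 44.3% of their DMSO level in DNMT1i. On the long arm of chromosome 8, 93 members lay in and between REXO1L pseudogenes, a tandemly repeated family, with 66.9%, 65.4%, 25.6% and 64.9%. A cluster 184986 bases from the alpha satellite block of chromosome 4, chr4:49510379-49515015 with 62 members, had 61.0%, 60.1%, 24.3% and 57.5%.

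Among clusters of 5 or more members, the highest levels and the largest shares kept in DNMT1i were in this class, while smaller alpha satellite clusters reached 89.6% in DMSO and 65.6% kept. The highest level among the clusters of 5 or more was at chr19:37293485-37293830, in an intron of a long non-coding RNA, with 88.9%, 87.2%, 57.0% and 86.9% over 8 members. It kept 65.4% of its DMSO level in DNMT1i, the most of any cluster of that size with a DMSO level of at least 20%, a limit that leaves out the nearly unmethylated mitochondrial copy. The next were chr8:85740849-85743042 beside REXO1L10P, at 40.9%, 41.9%, 22.5% and 41.2%, and chr7:56371985-56373581 near CICP8, at 61.9%, 65.6%, 34.6% and 63.4%. At the other end of the class, the 29-base array chr1:236097168-236097342 had 33.1%, 32.5%, 6.7% and 32.3% and kept 20.5%. Clusters with high levels at chr5:17526592-17526735, near TAF11L5, and chr19:50123812-50123981 had levels of 78.1% and 77.2% in DMSO, and of 29.5% and 31.3% in DNMT1i. The intronic CACNA1C cluster, chr12:2255880-2256030, had 50.2%, 50.4%, 12.6% and 45.1%.

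The comparison of DNMT1i with DMSO asks how far a block of maintenance methylation reached these repeats. Over members the level was lower by 43.1 points, from 65.0% to 21.9%, and over all shared autosomal CpGs by 43.5 points. By a two-sided Fisher's exact test on reads at each CpG with Benjamini-Hochberg adjustment over 23269121 CpGs, calls were made where the adjusted p was under 0.01 and the levels differed by 25 points or more. They compare 2 libraries, not conditions. Lower calls were made at 3768 of the 4318 members, 87.3%, against 63.6% of all CpGs tested, and higher calls at 0 members, against 4.3e-06%. By type these were 3107 of 3296 satellite II/III members, 470 of 720 alpha satellite members, 190 of 279 of no type and 0 of 19 in the mitochondrial copy. With counts scaled down to at most 30 reads per CpG, the shares were 77.9% of members and 62.2% of all. Every member then counted as 30 reads, but its level still came from all of its reads. Ordinary CpGs with fewer reads kept their own depth, so depth was still not alike. Of the members not called, 376 had a DMSO level under 25% and could not meet the size needed. Such low levels were more frequent in the background. In DMSO 21.6% of all shared autosomal CpGs were at 20% or under, against 7.57% of members. With an adjusted p under 0.01 whatever the size, 4236 members were lower, 98.1%, against 64.4% of all CpGs, and 0 were higher. At an unadjusted p under 0.05, 4265 members were lower and 0 higher, against 73.6% of all CpGs in either direction. By sign alone, without a test, 99.5% of members and 89.6% of all shared autosomal CpGs were lower in DNMT1i. Members are much deeper than ordinary CpGs, and the parts of depth and of starting level in these shares were not tested.

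Relative to where they started, members kept more methylation in DNMT1i than the autosomal average: 33.6% of the DMSO level against 27.9% over all shared autosomal CpGs. This was not particular to them. The CpGs of the alpha satellite blocks that were not members kept 34.3%, and those just under the threshold, at 280 to 299 reads, kept 36.8%. The share kept was larger at CpGs with a higher starting level, so both sets were split by their NonDiff level. In classes of 20 points from the lowest to the highest, members kept 20.2%, 22.6%, 24.8%, 31.8% and 37.9%, and all shared autosomal CpGs kept 15.1%, 16.9%, 19.2%, 21.7% and 30.7%. The members were higher in each of the 5 classes, by 5.13 to 10.1 points. From the lowest class to the highest, satellite II/III members kept 20.1%, 22.04%, 24.2%, 31.4% and 37.6%, and alpha satellite members 18.7%, 25.0%, 27.7%, 36.9% and 42.8%, so alpha satellite was lower in the lowest class and higher in the other 4. Over all classes they kept 33.3% and 34.0%. The classes are blurred for ordinary CpGs by their lower depth, and the part of this in the difference was not tested.

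**Figure D4:**
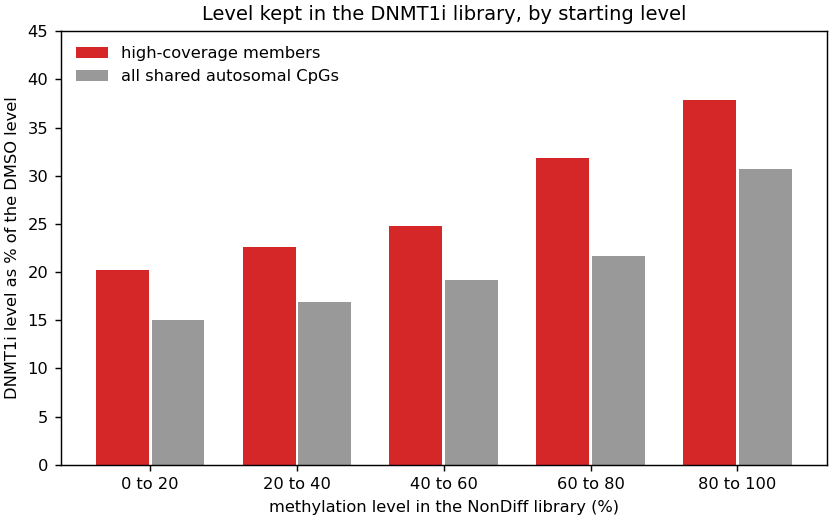
DNMT1i level as a percent of the DMSO level (vertical axis, bars from 0) for CpGs in 5 classes of NonDiff level (horizontal axis, percent), for the 4318 members and for all shared autosomal CpGs. Bars are levels over all reads of a class, with no error bars since there is 1 library per group; the member bar is the higher of the pair in each class.

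In EEDi the change was small and mostly in 1 direction. The members' level was 62.5% against 65.0% in DMSO, lower by 2.46 points, and all shared autosomal CpGs were lower by 1.02 points. Of the members, 3661, or 84.8%, were lower in EEDi than in DMSO, compared with 46.6% of all shared autosomal CpGs, whose signs are less certain at their lower depth; its part in this gap was not tested. By type, satellite II/III was lower by 2.68 points, alpha satellite by 2.26 points and members of no type by 0.64 points, and the shared CpGs of the alpha satellite blocks that were not members were lower by 2.45 points. No member was called at 25 points in either direction, against 0.00374% of all CpGs called lower and 0.000623% called higher. At an unadjusted p under 0.05, 1369 members were lower and 25 higher, against 5.46% of all CpGs in either direction. At an adjusted p under 0.01 and any size, 181 members were lower, 10 of them alpha satellite and the others satellite II/III, and 0 were higher, against 0.00452% of all CpGs lower and 0.000623% higher. Their median DMSO coverage was 10863 reads, their median difference 4.00 points and the largest 9.69 points. All shared autosomal CpGs had a median of 27 reads in DMSO, at which differences of this size cannot be called.

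The comparison of DMSO with NonDiff, for differentiation, gave a smaller difference than that of EEDi over members and a larger one over all shared autosomal CpGs. Members were lower in DMSO by 1.45 points and all shared autosomal CpGs by 1.43 points. Lower values in DMSO were found at 3356 members, 77.7%, and at 48.8% of all. At a median of 27 reads the sign of so small a difference is less certain than at members, so these shares are not comparable in depth. The part of depth in this gap was not tested. No member was called at 25 points, and neither was any other CpG, a background of 0% in either direction. At an unadjusted p under 0.05, 1029 members were lower and 42 higher, against 2.55% of all CpGs in either direction. At any size with an adjusted p under 0.01, 56 members were lower, 55 of them satellite II/III, by 1.90 to 4.91 points. These were all of the 56 CpGs so called among the 23269121 tested, a background of 0.000241% lower and 0% higher, and their median DMSO coverage was 12001 reads. Without satellite II/III the difference over members was 0.37 points in the other direction. The remaining members include the nearly unmethylated mitochondrial copy, whose reads summed over CpGs were 57519 in NonDiff and 25204 in DMSO. Alpha satellite members alone were lower by 1.02 points. The EEDi and DNMT1i comparisons share the DMSO library with each other and with this one, so a low or high DMSO value enters all 3.

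Coverage between libraries was compared after scaling by each library's median, as a description, since coverage chose the members. In DNMT1i relative to DMSO, satellite II/III members had a median ratio of 1.17, and 2877 of 3296 lay above 1.07, the 99th percentile of 100 kb windows. Alpha satellite members had a median of 1.01 with a wide spread: 166 of 720 lay above that percentile, and of the 213 clusters 38 were above it and 33 were under the 1st percentile. A single CpG or a small cluster has more counting error than a window of many CpGs, and its part in these counts was not tested. Among those of 5 or more members chr9:44081373-44082977 had the highest ratio, 1.21. The lowest ratios outside the mitochondrial copy, among clusters of 5 or more members, were 0.88 at chr4:9271833-9271958, in an intron of a long non-coding RNA, and 0.91 at the CACNA1C cluster. Of the 8 satellite II/III clusters, 6 were above that percentile. They were the 4 with a period of 26 bases, at 1.16 to 1.21, and those of chromosome 16 with a period of 49 bases, at 1.13. The pentamer arrays of chromosomes 4 and 20 had 0.90 and 1.03. For the largest cluster the mean coverage was 1206, 1144, 1424 and 1229 reads in NonDiff, DMSO, DNMT1i and EEDi. Whether the higher relative coverage of satellite II/III in DNMT1i comes from the DNA, the conversion or the mapping was not tested. With 1 library per group the library and the treatment cannot be told apart.

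In EEDi relative to DMSO the median ratio of members was 1.01, and 0 of the 8 satellite II/III clusters left the range of the windows. The lowest ratios were in alpha satellite: 6 of 213 clusters were under the 1st percentile of windows, 0.790. Among clusters of 5 or more members, chr17:25115440-25115560 had the lowest alpha satellite ratio, 0.89, while chr4:50662168-50662324 had 1.10 and chr21:7289419-7291650 had 1.09, the highest of those. In DMSO relative to NonDiff members had a median ratio of 0.93, with satellite II/III at 0.93 and alpha satellite at 0.93. Of the alpha satellite clusters 77 were under the 1st percentile of windows, 0.899, and 2 were above the 99th. The chromosome 21 cluster beside RNA45SN2 had 0.83, and the REXO1L clusters chr8:85769499-85774376 and chr8:85811007-85811311 had 1.01 and 1.02.

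**Figure D5:**
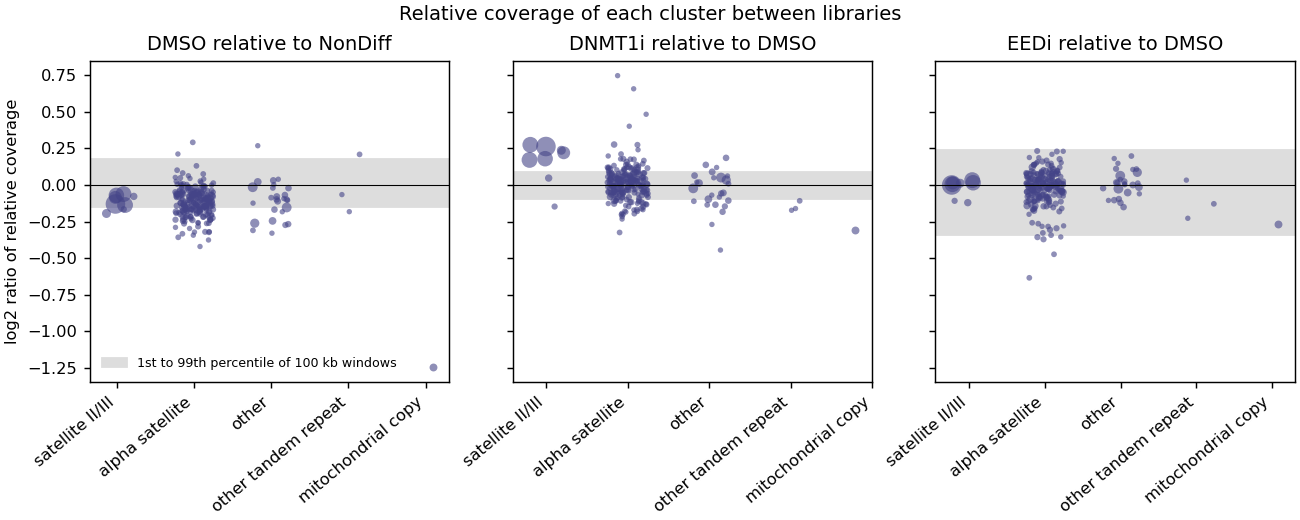
Log2 ratio of relative coverage (vertical axis) of each cluster by repeat type (horizontal axis), for the 3 comparisons. Points are clusters with area growing with the number of members, and the grey band runs from the 1st to the 99th percentile of 27165 windows of 100 kb; the 6 largest satellite II/III points lie above the band in DNMT1i relative to DMSO, and the mitochondrial copy lies far below it in DMSO relative to NonDiff.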

How the data were processed

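Methylation calls of 4 bisulfite libraries, 1 per group, were used as tables of CpGs. Per the submitters' processing notes, hg38, Trim Galore 0.6.7, cutadapt 4.1, Bismark, Bowtie2 2.1.0 and methylKit were used; removal of duplicates is not given in the sources used here. The series' design text says that most read pairs mapped uniquely, and whether other pairs were kept is not given in those sources. Each table deposited by the authors gives, per the file headers, the coverage of a CpG as a read count and the percent of C and of T among those reads, with both strands merged and a minimum of 10 reads. The deposited percent has 1 decimal, so methylated reads were recovered by rounding and are approximate above 1000 reads, which applies to 1758 to 2046 members per library. Unremoved duplicates would make reads less independent, so that counting error is understated.

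CpGs on chromosomes 1 to 22 and X listed in all tables were tested with two-sided Fisher's exact tests and Benjamini-Hochberg adjustment over all 23269121 of them. Such tests compare libraries. Reads were also simulated with the coverages of the EEDi comparison, and methylated CpGs with at least 300 reads in both libraries were strongly lowered. Of these, 200 of 200 were called, with 0 unchanged CpGs called, among 23269121. Lowering was not simulated at shallower CpGs or for small changes. Relative coverage is coverage over the library's median at shared autosomal CpGs. Alpha satellite blocks were runs of 100 kb windows of hg38 with at least 5 CENP-B boxes. Clusters were typed from hg38 and GENCODE 44 in this order: mitochondrial pseudogenes, ribosomal genes (0 found), pentamers at 10 times their genome density (satellite II/III), alpha satellite, any other period with at least 60% self-match, and the rest. Alpha satellite needed at least 60% self-match at a period of 165 to 175 bases, or more than 1 CENP-B box. A self-match of 40% was enough where the 100 kb window held at least 5 boxes, so position in a block entered the type. The pentamer step was moved ahead of the alpha satellite step after the data were seen, since arrays with a period of 5 bases also match themselves near the alpha satellite period; 3 clusters changed type. Clusters named in the text were the 10 with most members and, among those of at least 5 members, the extremes in coverage, level, level kept and coverage ratio; others were chosen after their values were seen. Members, lists and rules were chosen with earlier results of these data known. Python 3.11.15, numpy 2.4.6, scipy 1.17.1, pandas 2.3.3, numba 0.67.0 and pysam 0.24.0 were used.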

Additional observations from a re-analysis of the deposited data

How the results depend on the processing

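With 1 library per group there is no replicate to leave out, and the limits are those of single libraries. Counting error is small for levels over all members, and larger for coverage ratios of single CpGs and small clusters. Variation between cultures, duplicates and mapping is not measured. No paired analysis was possible because each group has 1 library. Of 81 values under other settings, 52 stayed within the allowed change, 28 moved and 1 reversed. The allowed change was a counting tolerance, near 0.04 points for methylation differences and 0.14 for log2 coverage ratios. The log2 coverage ratios for differentiation and EEDi, -0.105 and 0.0076, were smaller in size than that. Shares of 0% called, in the same comparisons, stay 0% in any subset of the members. Many of the 52 could therefore hardly move. The reversed one is the methylation difference for differentiation without satellite II/III clusters, a setting chosen after seeing the data: 0.367 points in place of -1.45. The same setting gave -28.2 points and 64.7% of members called for DNMT1i, -1.59 points for EEDi, a log2 coverage ratio of 0.0058 for DNMT1i in place of 0.19, and 84.1% of members near a centromere. For differentiation the methylation difference was -1.28 points without the largest cluster, -1.59 as a mean over members and -0.91 as a mean over clusters. For DNMT1i it was -43.3 and -42.7 points with members at 500 and at 200 reads or more, -41.9 without the largest cluster, -42.8 as a mean over members and -30.1 over clusters. For EEDi the means over members and clusters gave -2.38 and -2.26 points. The share of members called lower in DNMT1i was 89.4% at 500 reads, 83.4% at 200 reads, 82.3% without the largest cluster, 94.4% with a difference of 10 points and 77.9% with counts scaled to 30 reads. The median over clusters of the log2 coverage ratio was 0.0053 for DNMT1i, since most clusters are alpha satellite. The share of members near a centromere was 49.5% at 500 reads, 57.1% at 200 reads, 75.2% without the largest cluster, 49.5% within 2 Mb and 64.5% within 10 Mb. With gaps left out of the distance, also chosen after seeing the data, it was 96.2%. With clusters ended by gaps of 1 kb, 85.9% of clusters were near a centromere.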

Other observations

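A few single-member and small clusters stood apart and were picked here after their values were seen. The alpha satellite CpG at chr3:93470645 had 25816 reads in NonDiff, 26873 in DMSO, 26844 in DNMT1i and 28286 in EEDi, among the deepest of all members, with levels listed near 1.6% in NonDiff and DMSO, 0.50% in DNMT1i and 1.4% in EEDi. Over single members, the ratio of relative coverage of DNMT1i to DMSO was as high as 1.86, in satellite II/III. Over clusters, the highest ratios were at alpha satellite clusters of 1 member. There chr12:36464912 had 405, 324, 564 and 338 reads in NonDiff, DMSO, DNMT1i and EEDi, and chr4:50978536 had 432, 365, 597 and 422 reads. Their levels in DNMT1i, 18.8% and 16.6%, were in the range of other alpha satellite clusters. Over clusters, the lowest ratio of EEDi to DMSO, 0.644, was at chr17:24752027-24752066. Its 2 members had a mean of 478.5, 467, 498 and 323 reads and levels of 33.8%, 32.7%, 12.3% and 30.8%. The 1 member that is not at a CpG of the reference, chr10:40556964 in alpha satellite, had 515, 502, 609 and 532 reads and was listed as 0% methylated in all 4 libraries.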
